A study of Homo sapiens with 6 samples.

Results

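Y-box binding protein 1 (YB1, encoded by YBX1) is a cold-shock domain protein that binds DNA and RNA, and its activity is set in part by kinases that phosphorylate it. The mRNA of 8 such kinases was followed here in renal cancer cells with and without knockdown of YB1. They were chosen by name as known upstream kinases of YB1, by a rule that uses no measured value. Earlier results of these data were, however, known when the choice was made. They were the ribosomal S6 kinases RPS6KA1 (RSK1), RPS6KA2 (RSK3) and RPS6KA3 (RSK2), the mitogen- and stress-activated kinases RPS6KA4 (MSK2) and RPS6KA5 (MSK1), the AKT kinases AKT1 and AKT2, and MAPK3, which encodes ERK1. All 8 were found among the 20030 genes of the deposited table, and all 8 passed the filter on low values that left 10439 genes for testing.

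The cells were 786-O, an established line from a clear cell renal cell carcinoma (ccRCC), at passages 16 to 18. The vector group carried a scrambled shRNA and the shYB1 group an shRNA against YB1, and the cells were harvested after puromycin selection. Each group had 3 libraries of total RNA, numbered 1 to 3. The series' design text mentions more than one hairpin against YB1, whereas the labels give a single shYB1 group, so which hairpin a library carried is not known, and nothing states whether the libraries came from separate cultures. If they did not, the p-values below measure only technical spread.

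As background, a growth factor receptor signals to the kinases through a pair of branches. In the first, Ras activates Raf, MEK and then ERK, and ERK switches on RSK and, together with p38, MSK. In the second, PI3K recruits AKT to the membrane, where PDK1 and mTOR complex 2 phosphorylate it. AKT and RSK both recognise basic stretches ahead of a serine or threonine, and both are known to phosphorylate YB1 in its cold-shock domain. These kinases are regulated chiefly by phosphorylation, which was not measured by sequencing. The values below are levels of mRNA only.

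The deposited values were FPKM (fragments scaled to transcript length and to the mapped total). The values can be compared between genes only as far as the transcript lengths used are right. They hold no counts, so depth is unknown and no counting interval can be given. Totals over all genes lay between 282736 and 295887 FPKM per library, and no library was left out. YBX1, the targeted gene, had 367, 373 and 378 FPKM in vector libraries 1 to 3 and 167, 166 and 173 FPKM in shYB1 libraries 1 to 3. Its mRNA was lower in all 3 knockdown libraries (log2 fold change −1.14, standard error, SE, 0.031, adjusted p = 1.53e-08 by limma). Of the 50-base words in YBX1 transcripts, 32.1% also occur in other genes, mainly the pseudogene YBX1P1, so its level is uncertain to that extent. All 5 markers of the renal line were expressed, and they did not all stay level between groups. PAX8 was at 75.6 to 78.7 FPKM and VIM at 1366 to 1450 FPKM over the 6 libraries, both with overlapping groups. CDH6 was lower in shYB1 cells, at 47.6 to 48.4 FPKM in vector libraries and 32.8 to 33.3 FPKM in shYB1 libraries (adjusted p = 3.92e-06 by limma). PAX2 was higher, at 16.5 to 17.5 FPKM in vector libraries and 18.1 to 19.5 FPKM in shYB1 libraries (adjusted p = 0.0392 by limma). EPAS1 had 83.2 to 85.3 FPKM in vector libraries and 78.8 to 81.0 FPKM in shYB1 libraries and did not pass the test (adjusted p = 0.0798 by limma). The part of these differences in the results below was not tested. Of the markers of other cell types, CD68 alone exceeded 0.5 FPKM in any library, at 22.1 to 25.4 FPKM. The leukocyte genes PTPRC and CD3E were at or near 0, with at most 0.0164 FPKM.

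Among the 8 kinases, MAPK3 was lower and RPS6KA4 was higher in shYB1 cells, and the other 6 did not pass the test. Called means an adjusted p under 0.05 from limma on log2(FPKM + 0.1), with Benjamini-Hochberg adjustment over all 10439 genes. Thus 1 of 8 was called higher and 1 of 8 lower, and over all genes tested 18.7% were called higher and 6.93% lower, 25.7% in all. A share of 2 in 8 is close to that background, so the kinases were not called more often than other genes. The study's methods asked for a 2-fold change with a p under 0.05 and do not say whether that p was adjusted. With an unadjusted p, 0 of the 8 kinases got there, against 0.220% of all genes (0.259% after median-of-ratios scaling). The median log2 fold change was −0.058 over the 8 kinases and 0.055 over all genes tested. In bulk RNA, a lower share of cells with an mRNA cannot be told apart from less of that mRNA in each cell.

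The base sequences before the gene starts of the pair that was called are shown first, with that of RPS6KA5 beside them, since YB1 is named for the Y-box (CCAAT, or ATTGG on the other strand). Each is the 250 bases upstream of a RefSeq gene start (GRCh38.p14), 5′ to 3′ on the gene's own strand, with Y-box letters in capitals. The gene positions given further below are from GENCODE, which places some starts elsewhere. By GENCODE, MAPK3 starts at 30123506 on the minus strand, so its whole window lies inside the gene. RPS6KA4 starts at 64359148 by GENCODE, so the last bases of its window lie inside the gene. The RPS6KA5 window is upstream by both annotations.
MAPK3 (chr16:30123221-30123470, minus strand): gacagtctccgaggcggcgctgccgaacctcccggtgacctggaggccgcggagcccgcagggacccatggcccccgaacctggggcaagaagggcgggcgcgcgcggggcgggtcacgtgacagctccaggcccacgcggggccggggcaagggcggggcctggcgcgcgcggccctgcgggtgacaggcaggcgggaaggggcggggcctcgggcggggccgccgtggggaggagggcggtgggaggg
RPS6KA4 (chr11:64358912-64359161, plus strand): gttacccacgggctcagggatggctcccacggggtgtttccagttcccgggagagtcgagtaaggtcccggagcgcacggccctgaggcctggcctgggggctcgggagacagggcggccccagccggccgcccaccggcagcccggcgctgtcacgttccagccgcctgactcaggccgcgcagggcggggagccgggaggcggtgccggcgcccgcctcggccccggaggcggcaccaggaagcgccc
RPS6KA5 (chr14:91060642-91060891, minus strand): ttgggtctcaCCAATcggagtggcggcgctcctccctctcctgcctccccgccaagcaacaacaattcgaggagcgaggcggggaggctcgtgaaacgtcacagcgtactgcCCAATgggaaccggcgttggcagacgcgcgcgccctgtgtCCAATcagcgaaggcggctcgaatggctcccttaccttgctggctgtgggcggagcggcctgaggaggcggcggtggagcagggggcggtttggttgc
The MAPK3 and RPS6KA4 windows held no capitals, that is 0 Y-box matches, and the RPS6KA5 window held 3. Another RPS6KA5 promoter, at a different gene start, held 0 matches. G and C made up 80.4% of the MAPK3 window, 76.8% of that of RPS6KA4 and 66.4% of that of RPS6KA5, which was not called. The median over all promoters was 58.0%. This share was not computed for the other kinases. With 50 bases after the start included, 6 of 15 promoters of the 8 kinases held the motif on either strand, spread over 4 genes, and 34.6% of all 35116 promoters held it. The 4 genes were RPS6KA1, RPS6KA2, RPS6KA5 and AKT2, none of which was called. RPS6KA3 and AKT1, also not called, held 0 matches. A match is a description of the letters and not evidence of binding.

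ERK1, the product of MAPK3, is the kinase that sits above RSK and MSK. MAPK3 lies on chromosome 16 (GRCh38, 30114105 to 30123506, minus strand). The transcript taken to represent it spans 1861 bases in 9 exons. Its FPKM were 26.3, 24.6 and 27.7 in vector libraries 1 to 3 and 19.6, 20.6 and 21.0 in shYB1 libraries 1 to 3. Every knockdown library lay below every vector library, and the closest pair was 3.65 FPKM apart. The vector mean was 26.2 ± 1.55 FPKM and the shYB1 mean 20.4 ± 0.722 FPKM (SD, n = 3 each). This was a log2 fold change of −0.36 (SE 0.050, 95% confidence interval −0.47 to −0.25), a level 0.780 times that of vector cells, with an adjusted p of 0.000798 by limma. Of all genes tested, 1.79% had a log2 fold change as low or lower. The call held in 15 of 15 alternative fits, with adjusted p between 9.39e-05 and 0.00820 by limma. MAPK3 shares 0 of its 50-base words with other genes, and no exon of its representative transcript overlaps another gene.

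**Figure D1:**
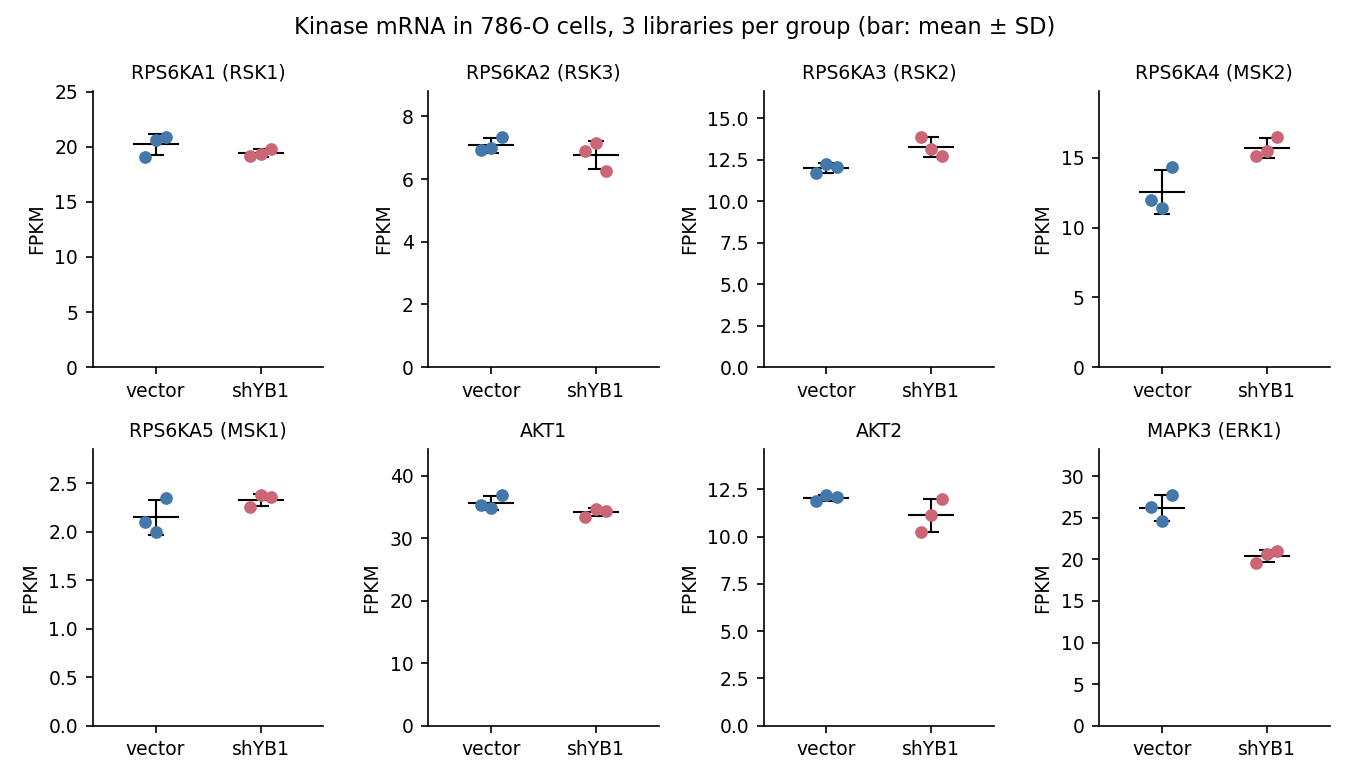
FPKM of the 8 kinase genes (y axis, from 0, a separate scale for each gene) in the 3 vector libraries (blue) and the 3 shYB1 libraries (red), in the order 1 to 3, with mean and SD in black. MAPK3 falls from 24.6 to 27.7 FPKM down to 19.6 to 21.0 FPKM, RPS6KA4 moves up, and the points of the other genes lie close together or overlap.

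The MSK kinases are nuclear and phosphorylate CREB1, ATF1 and histone H3. RPS6KA4 (MSK2; chromosome 11, 64359148 to 64372215, plus strand) had 11.97, 11.4 and 14.4 FPKM in vector libraries 1 to 3 and 15.1, 15.5 and 16.5 FPKM in shYB1 libraries 1 to 3. All knockdown libraries were above all vector libraries, but vector library 3 stood well above the other vector libraries and close to shYB1 library 1. The means were 12.6 ± 1.58 and 15.7 ± 0.710 FPKM (SD, n = 3 each), the widest spread between vector libraries of any of the 8 kinases (12.6% of the mean). On the log2 scale the change was 0.33 (SE 0.080, 95% confidence interval 0.15 to 0.51), a level 1.25 times that of vector cells, with an adjusted p of 0.0165 by limma. After median-of-ratios scaling it was 0.27 (adjusted p = 0.0310 by limma). The call was lost without vector library 1 (0.30, adjusted p = 0.0622 by limma) and without shYB1 library 3 (0.29, adjusted p = 0.0568 by limma), and without vector library 3 the log2 fold change was 0.43 (adjusted p = 0.000679 by limma). Over 15 alternatives the adjusted p ranged from 0.000679 to 0.0622 and the direction did not turn.

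RPS6KA5 (MSK1; chromosome 14, 90847862 to 91060636, minus strand) was the least expressed of the 8, in the lowest 14.6% of genes tested by mean level. It had 2.10, 2.001 and 2.35 FPKM in vector libraries and 2.26, 2.38 and 2.35 FPKM in shYB1 libraries, with vector library 3 again the highest of its group and within the knockdown range. This was a log2 fold change of 0.11 (SE 0.084, 95% confidence interval −0.074 to 0.30, adjusted p = 0.356 by limma). By FPKM, most MSK mRNA was therefore that of MSK2. FPKM divides by transcript length, and the representative transcripts span 26795 bases for RPS6KA5 and 3119 bases for RPS6KA4. Whether the cells use these lengths was not tested. RPS6KA4 made up 85.3% ± 0.510 of the summed MSK FPKM in vector cells and 87.1% ± 0.412 in shYB1 cells (SD, n = 3 each), and its share was higher in every knockdown library. The ratio of RPS6KA4 to RPS6KA5 was 5.69, 5.68 and 6.11 in vector libraries and 6.70, 6.52 and 7.01 in shYB1 libraries (exact permutation test, two-sided, p = 0.1, below which 3 against 3 libraries cannot go). Summed MSK mRNA was 14.7 ± 1.76 FPKM without knockdown and 18.1 ± 0.747 FPKM with it, and the groups did not overlap.

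The RSK kinases carry a pair of kinase domains and are the ERK targets most often tied to YB1. RPS6KA1 (RSK1; chromosome 1, 26529761 to 26575030, plus strand) had the highest level of them, with 19.1, 20.6 and 20.9 FPKM in vector libraries and 19.1, 19.4 and 19.8 FPKM in shYB1 libraries. The groups overlapped because vector library 1 was as low as the knockdown libraries. On the log2 scale the change was −0.056 (SE 0.045, 95% confidence interval −0.16 to 0.045, adjusted p = 0.398 by limma). RPS6KA2 (RSK3; chromosome 6, 166409364 to 166906451, minus strand) had 6.91, 6.97 and 7.35 FPKM in vector libraries and 6.90, 7.14 and 6.26 FPKM in shYB1 libraries. Only shYB1 library 3 lay clearly below the rest. This was a log2 fold change of −0.066 (SE 0.062, 95% confidence interval −0.20 to 0.071, adjusted p = 0.469 by limma).

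RPS6KA3 (RSK2; chromosome X, 20149911 to 20267519, minus strand) is the RSK gene mutated in Coffin-Lowry syndrome. It had 11.7, 12.3 and 12.0 FPKM in vector libraries and 13.9, 13.1 and 12.7 FPKM in shYB1 libraries. Each knockdown library was above each vector library, yet the call was missed narrowly. On the log2 scale the change was 0.14 (SE 0.049, 95% confidence interval 0.033 to 0.25, adjusted p = 0.0560 by limma), and the adjusted p was under the threshold in 2 of 15 alternatives, within a range of 0.0441 to 0.258. After median-of-ratios scaling the log2 fold change was 0.086 (adjusted p = 0.216 by limma), since this scaling lowers every knockdown value relative to vector. Its share of summed RSK FPKM, which is free of scaling, was 31.0%, 30.7% and 29.9% in vector libraries and 34.8%, 33.1% and 32.8% in shYB1 libraries. The ratio of RPS6KA1 to RPS6KA3 was 1.63 to 1.74 in vector libraries and 1.38 to 1.56 in shYB1 libraries, again without overlap. RPS6KA6 (RSK4) was listed at 0 in all 6 libraries. Summed RSK mRNA was 39.3 ± 1.40 FPKM without knockdown and 39.4 ± 0.613 FPKM with it (SD, n = 3 each), and the groups overlapped.

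**Figure D2:**
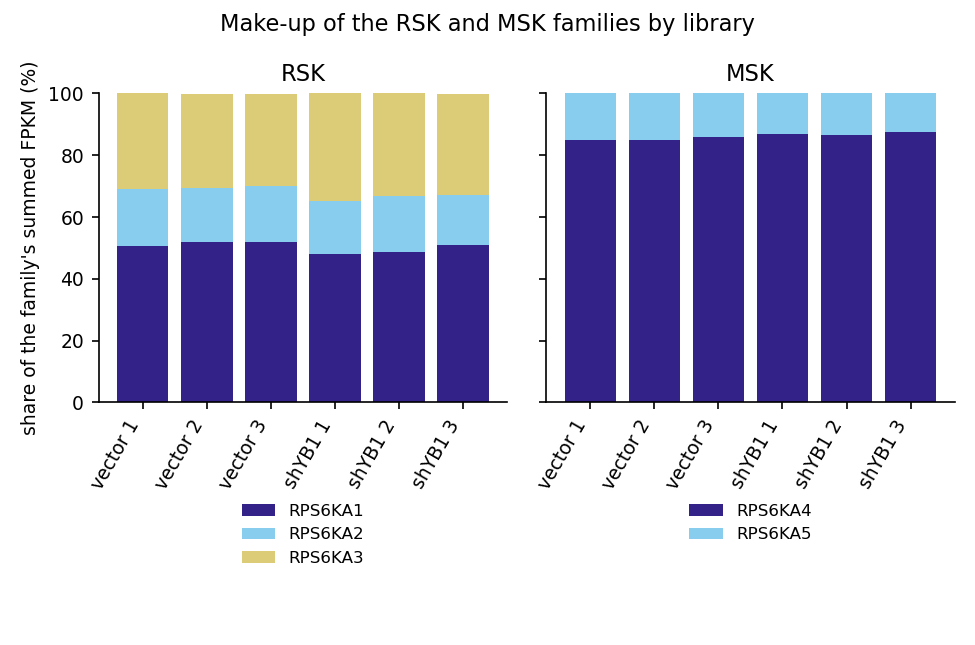
Share of each gene in the summed FPKM of the RSK and MSK families (y axis, percent) in each of the 6 libraries (x axis). The RPS6KA3 part of the RSK bar grows from 29.9% to 31.0% in vector libraries up to 32.8% to 34.8% in shYB1 libraries, and RPS6KA4 fills most of the MSK bar throughout.

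AKT kinases phosphorylate survival, growth and glucose-uptake proteins. AKT1 (chromosome 14, 104769349 to 104795751, minus strand) was the most abundant of the 8, with 35.3, 34.8 and 36.9 FPKM in vector libraries and 33.5, 34.7 and 34.3 FPKM in shYB1 libraries. The groups did not overlap, by a margin of under 0.1 FPKM between vector library 2 and shYB1 library 2. This was a log2 fold change of −0.061 (SE 0.037, 95% confidence interval −0.14 to 0.022, adjusted p = 0.256 by limma), and after median-of-ratios scaling it was −0.12 (adjusted p = 0.0350 by limma), past the threshold. Exons of an antisense gene, AL583722.2, cover 16.9% of the representative AKT1 transcript. Whether counting used the strand is not given in the sources used here, so reads from that stretch cannot be assigned to either gene.

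AKT2 (chromosome 19, 40230317 to 40285536, minus strand) had 11.9, 12.2 and 12.1 FPKM in vector libraries and 10.3, 11.1 and 12.0 FPKM in shYB1 libraries. Vector libraries were close together, and knockdown libraries were spread from well below them to within their range. On the log2 scale the change was −0.12 (SE 0.058, 95% confidence interval −0.25 to 0.012, adjusted p = 0.166 by limma), and the adjusted p stayed above the threshold in 15 of 15 alternatives, the lowest being 0.0501. The ratio of AKT1 to AKT2 overlapped between groups, at 2.85 to 3.06 in vector cells and 2.86 to 3.26 in shYB1 cells.

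**Figure D3:**
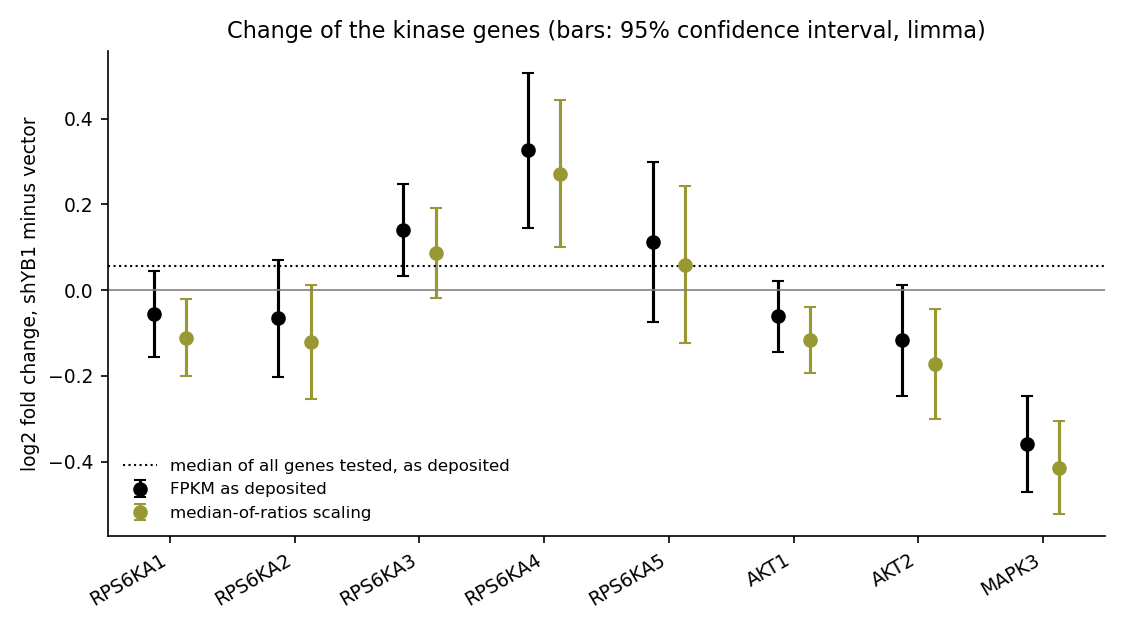
Log2 fold change of each kinase gene on the log2(FPKM + 0.1) scale, shYB1 minus vector (y axis), with its 95% confidence interval from limma, for FPKM as deposited (black) and after median-of-ratios scaling (olive). The dotted line is the median of all genes tested, 0.055, and the intervals of MAPK3 and RPS6KA4 exclude both it and 0 as deposited.

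Ranked by mean level over the 6 libraries, the order was AKT1, MAPK3, RPS6KA1, RPS6KA4, RPS6KA3, AKT2, RPS6KA2 and RPS6KA5, from 34.9 down to 2.24 FPKM. Neighbours overlapped between MAPK3 and RPS6KA1, between RPS6KA4 and RPS6KA3, and between RPS6KA3 and AKT2. The other neighbours were apart in all libraries. The first 4 places were the same in both groups, and RPS6KA3 stood above AKT2 in shYB1 cells and just below it in vector cells. In 4 of the 8 genes the groups did not overlap, RPS6KA3 and RPS6KA4 upward and AKT1 and MAPK3 downward, and over all genes tested the share was 42.6% (30.1% upward and 12.5% downward). After median-of-ratios scaling the groups did not overlap in 7 of 8, against 40.4% of all genes (20.0% upward and 20.4% downward). This scaling moved the median of all genes from 0.055 to 0.00099, and MAPK3 and AKT1 were then called lower and RPS6KA4 higher. Its background was 11.4% of genes called higher and 12.0% called lower, 23.4% together.

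For 7 of the kinases the gene with the most similar profile over the 6 libraries among all genes tested is given, by Pearson's correlation of log2(FPKM + 0.1). For MAPK3 it was IMPA2 (r = 0.995), an inositol monophosphatase, which was also lower in shYB1 cells (log2 fold change −0.24, adjusted p = 0.00255 by limma). The others were PCNX1 for RPS6KA3 (r = 0.997), NXN for RPS6KA4 (r = 0.996), CKAP4 for RPS6KA5 (r = 0.998), OGDH for AKT1 (r = 0.994), MINDY1 for AKT2 (r = 0.987) and STK35 for RPS6KA2 (r = 0.986). These 6 were not called. With 6 points that share libraries and 10439 candidates, a high r was found for each of these 7, and 203 genes reached an r above 0.95 with MAPK3 and 216 with RPS6KA4. In the table's own annotation all 8 kinases belong to the KEGG MAPK signaling pathway, which lists 295 genes, and 6 of them belong to mTOR signaling.

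Other kinases of the same branch of the kinome were read from a fixed list of 8 relatives, of which 6 were tested. Of these, 2 were lower in shYB1 cells and none was higher, against 6.93% lower and 18.7% higher over all genes tested. SGK1, a glucocorticoid-induced kinase close to AKT, had 7.10, 7.71 and 7.60 FPKM in vector libraries and 5.90, 6.28 and 5.83 FPKM in shYB1 libraries (log2 fold change −0.31, SE 0.057, adjusted p = 0.00351 by limma). SGK2 had 8.32, 9.12 and 9.75 FPKM in vector libraries and 7.80, 7.16 and 7.57 FPKM in shYB1 libraries (log2 fold change −0.27, SE 0.065, adjusted p = 0.0145 by limma). For both, no knockdown library reached the vector range. The p70 S6 kinases RPS6KB1 and RPS6KB2 had log2 fold changes of 0.0024 and −0.14 (adjusted p = 0.985 and 0.141 by limma). After median-of-ratios scaling RPS6KB2 passed as well (adjusted p = 0.0492 by limma), and without shYB1 library 2 the number lower was 1. SGK3 had at most 0.867 FPKM and was not tested.

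Upstream in the Ras branch, 3 of 14 genes were higher in shYB1 cells and none was lower. The shares over all genes tested were 18.7% higher and 6.93% lower. The list's median log2 fold change of 0.059 lay next to the 0.055 of all genes. The GTPase gene HRAS had 6.68, 5.80 and 6.99 FPKM in vector libraries and 8.59, 8.25 and 8.45 FPKM in shYB1 libraries (log2 fold change 0.38, SE 0.069, adjusted p = 0.00353 by limma). KSR1, a scaffold for Raf, MEK and ERK, went from 1.65 ± 0.127 to 2.19 ± 0.0856 FPKM (SD, n = 3 each, adjusted p = 0.0104 by limma). In both the groups were apart. After median-of-ratios scaling, with 12.0% of all genes lower, 1 gene of the list, SOS2, was also lower, and after quantile normalization 2 were. NRAS, the highest of the list at 29.3 to 32.7 FPKM over the 6 libraries, overlapped between groups (adjusted p = 0.829 by limma), and the MEK genes MAP2K1 and MAP2K2 were not called (adjusted p = 0.438 and 0.0553 by limma).

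The p38 module, the other activator of MSK, had 4 of 6 genes tested and none called, against 25.7% of all genes tested. MAPK12, its highest member, had log2 fold change 0.060 (adjusted p = 0.451 by limma). By unadjusted p under 0.05 the count was 1, MAP2K3 (log2 fold change 0.18, adjusted p = 0.0560 by limma), and fits with a filter at 5 FPKM, with a common total, with the replicate block or without vector library 3 each called 1 gene higher.

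In the PI3K branch, 1 of 10 tested genes was higher and 2 were lower in shYB1 cells, against 18.7% and 6.93% of all genes. MTOR, the kinase shared by both mTOR complexes, had 7.14, 7.73 and 7.04 FPKM in vector libraries and 8.65, 8.54 and 8.47 FPKM in shYB1 libraries (log2 fold change 0.23, SE 0.053, adjusted p = 0.0119 by limma). PIK3R1, the p85α regulatory subunit of PI3K, went from 5.29 ± 0.284 to 4.28 ± 0.277 FPKM (SD, n = 3 each, adjusted p = 0.0109 by limma). MAPKAP1, a subunit of mTOR complex 2, went from 12.9 ± 0.592 to 11.2 ± 0.237 FPKM (SD, n = 3 each, adjusted p = 0.0140 by limma). The groups were apart in all of them. PIK3R2, the highest of the list, did not pass the test (log2 fold change −0.011, adjusted p = 0.894 by limma), nor did PDPK1, which encodes PDK1 (log2 fold change 0.16, adjusted p = 0.139 by limma).

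Among phosphatases that oppose these kinases, 7 of 12 tested genes were higher in shYB1 cells and none was lower, and over all genes tested 18.7% were higher and 6.93% lower. Their median log2 fold change was 0.13, against 0.055 over all genes. DUSP5, a nuclear phosphatase of ERK, had 59.7, 58.5 and 58.7 FPKM in vector libraries and 70.1, 75.2 and 72.0 FPKM in shYB1 libraries (log2 fold change 0.30, SE 0.035, adjusted p = 0.000301 by limma). DUSP6, its cytoplasmic counterpart, went from 8.24 ± 0.0950 to 10.6 ± 0.721 FPKM (SD, n = 3 each, adjusted p = 0.00160 by limma). DUSP4, another nuclear phosphatase, went from 1.32 ± 0.0588 to 1.84 ± 0.104 FPKM (SD, n = 3 each, adjusted p = 0.00577 by limma). In each, knockdown and vector libraries were apart. PPP2R1A, the scaffold subunit of protein phosphatase 2A, went from 59.3 ± 2.02 to 66.2 ± 1.23 FPKM (SD, n = 3 each, adjusted p = 0.00946 by limma). After median-of-ratios scaling 4 were higher and 1 lower, against 11.4% and 12.0% of all genes. Quantile normalization gave the same numbers, with 1267 of all genes higher and 1184 lower. With no filter on low values, or without vector library 1 or 2 or shYB1 library 2 or 3 the number higher was 4. Over all genes the number higher was also smaller in these fits, at 1324 to 1582 against 1956.

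**Figure D4:**
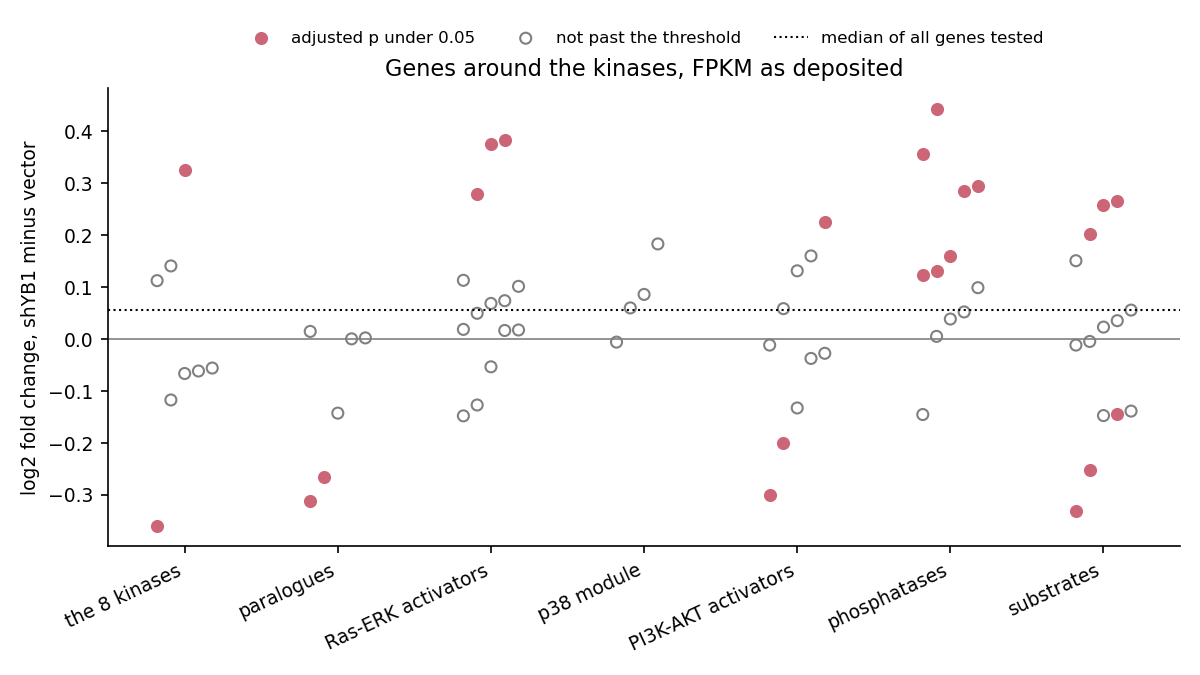
Log2 fold change of every tested gene (y axis, shYB1 minus vector, FPKM as deposited) in the group of 8 kinases and in 6 lists around them (x axis), filled where the adjusted p from limma was under 0.05. The phosphatases have 7 of 12 points filled, all above 0 as deposited, and the p38 module has none. After median-of-ratios scaling 4 phosphatases were called above 0 and 1 below, against 11.4% and 12.0% of all genes.

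Substrates of AKT, RSK and MSK went both ways, with 3 of 14 tested genes higher and 3 lower in shYB1 cells. Over all genes tested 18.7% were higher and 6.93% lower. EIF4B, a translation initiation factor phosphorylated by RSK and p70 S6 kinase, had 98.0, 101 and 101 FPKM in vector libraries and 78.8, 81.1 and 78.6 FPKM in shYB1 libraries (log2 fold change −0.33, SE 0.031, adjusted p = 7.87e-05 by limma). RPS6, the ribosomal protein after which the S6 kinases are named, had 1673, 1591 and 1730 FPKM in vector libraries and 1372, 1440 and 1380 FPKM in shYB1 libraries (log2 fold change −0.25, SE 0.037, adjusted p = 0.00109 by limma). Both sets of libraries were far apart. CDKN1B, the cell cycle inhibitor p27, went from 36.5 ± 1.01 to 33.0 ± 0.195 FPKM (SD, n = 3 each, adjusted p = 0.0145 by limma). TBC1D4, the AKT substrate that gates glucose transporter traffic, went from 3.71 ± 0.0632 to 4.49 ± 0.176 FPKM (SD, n = 3 each, adjusted p = 0.0111 by limma). After median-of-ratios scaling 2 were higher and 5 lower, against 11.4% and 12.0% of all genes. Without vector library 1 or shYB1 library 3 the number higher was 1.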

How the data were processed

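Total RNA of 6 libraries of 786-O cells, 3 vector and 3 shYB1, was sequenced. The authors deposited FPKM per gene and library. The submitters' processing notes name Trimmomatic, HISAT2, Cufflinks, HTSeq and DESeq with the build GRCh38, without versions or roles. The columns named as control were read as the vector libraries. All 6 columns were used.

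Deposited FPKM were put on the scale log2(FPKM + 0.1), and genes averaging under 1 FPKM were dropped, which left 10439. The shYB1 and vector groups were then tested in limma 3.58.1 (R 4.3.3, expression trend, robust prior, two-sided) without a replicate block. Adjusted p-values follow Benjamini and Hochberg and span the 10439 genes. The step was run on simulated data whose changes were larger than that of any of the 8 kinases, so changes of their size were not covered. Fold changes understate those of low genes. Loci, exons and shared words are from GENCODE release 29 (GRCh38), promoters from RefSeq (GRCh38.p14), in which all 8 kinases matched. The members, lists and alternatives were chosen with earlier results of these data known, and lists are described by counts without a set test. Named were YBX1, the 8 kinases, their relatives, cell type markers, the called genes of each list (up to 4 with the smallest p) with its highest gene, and the gene most alike to each kinase. Genes named beyond this (MAP2K1, MAP2K2, MAP2K3, SOS2 and PDPK1) were chosen after their values were seen. Some genes of the lists and some genes alike to a kinase are counted but not reported here by name. Alternatives were other pseudocounts, filters, scalings and variance prior, the block, and each library left out.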

Additional observations from a re-analysis of the deposited data

How the results depend on the processing

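Over all genes, 1956 were higher and 723 lower as deposited, 1192 higher and 1253 lower after median-of-ratios scaling, and 1267 and 1184 after quantile normalization. Of the 8 kinases, 1 was higher and 1 lower as deposited, 2 were lower with either of these scalings, since AKT1 was then called (log2 fold change −0.12 and −0.10), and 2 were higher with a filter at 5 FPKM, where RPS6KA3 (0.14) was called. Kinases whose groups did not overlap numbered 4 as deposited and 7 after median-of-ratios scaling, against 42.6% and 40.4% of all genes. With each library left out in turn, 0 to 1 of the kinases and 1324 to 1948 of all genes were called higher. The kinases whose groups did not overlap then numbered 4 to 6. The matching share of all genes was not computed, and with fewer libraries non-overlap comes about more easily. In these fits the log2 fold change was −0.40 to −0.32 for MAPK3, 0.26 to 0.43 for RPS6KA4 and 0.11 to 0.17 for RPS6KA3. Those of the kinases not called moved by over 1.5 times in part of these fits, at −0.096 to −0.030 for RPS6KA1, −0.11 to −0.012 for RPS6KA2, 0.064 to 0.18 for RPS6KA5, −0.079 to −0.036 for AKT1 and −0.17 to −0.061 for AKT2. No kinase turned direction in any alternative run. Of 180 counts for the lists under alternatives, 159 were within 1.5 times the count as deposited. With the replicate number as a block, MAPK3 had a log2 fold change of −0.36 (adjusted p = 0.000651 by limma), RPS6KA4 0.33 (adjusted p = 0.00284), 1 kinase each was called higher and lower, and 2074 genes were higher and 760 lower. Pairing by number was checked on what was left after each gene's group mean was subtracted, and none was seen. These remainders correlated at −0.169 to −0.00824 between same-numbered vector and shYB1 libraries. Of the 6 libraries, 0 correlated best with its own number. Whether the libraries were prepared in pairs is not known. Depth is unknown, so what it limits could not be computed.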
